A study of Mus musculus with 6 samples.

Results

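After knockdown of NF-YA and NF-YC in N2a cells, transcripts for several steps that build the N-glycan in the endoplasmic reticulum (ER) were lower. The decrease passed the test and exceeded 1.5-fold for 6 of 42 genes, beside 5.0% of all genes tested. Smaller decreases passed the test in 9 further genes, of which 4 act in glycan transfer or trimming. Without a minimum fold, 15 of the 42 were lower and 5 higher, beside 15.8% and 15.7% of all genes tested. The 42 genes described here build the dolichol-linked oligosaccharide, move it to proteins and trim it afterwards. They were listed by their known function, with earlier results of these data known, and each was read from its brightest probe, matched to the gene through the accession that the scanner files give. All 42 were among the 16490 genes tested. The data came from neuro2a (N2a), a mouse neuroblastoma cell line. There were 3 arrays from cells given an empty vector (Vector) and 3 from cells given miR RNAi vectors that target NF-YA and NF-YC (YAYC). None of these arrays is labelled as a non-targeting miR control. A response to miR expression itself and a response to less NF-Y therefore cannot be told apart here. Each array carried Cy3-labelled material made from total RNA on an Agilent 1-colour mouse design. The cells were transiently transfected, the share that took up a vector was not given in the sources used here, and all cultures of both groups are of this 1 line. The labels do not say that replicates were separate cultures, so p-values measure only the spread between these arrays, and 3 arrays per group limit their precision.

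N-glycans are made on dolichol phosphate, a long isoprenoid lipid of the ER membrane. N-acetylglucosamine and mannose are added on the cytosolic face, the glycan is flipped, and further mannose and glucose are added on the lumenal face from dolichol-linked donors. Oligosaccharyltransferase moves the finished glycan to asparagine residues of nascent proteins, glucosidases trim it, and the lectin chaperones calnexin and calreticulin bind the trimmed form. NF-Y is a heterotrimer of NF-YA, NF-YB and NF-YC that binds CCAAT boxes in promoters.

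The targeted transcripts were lower on the YAYC arrays. Nfyc changed by -1.81 (SE 0.045, limma adjusted p 0.00032) and Nfya by -0.76 (SE 0.055, limma adjusted p 0.0013) on the log2 scale, while Nfyb, which was not targeted, changed by 0.83 (SE 0.060, limma adjusted p 0.0013). Of 13 neuroblastoma and sympathetic lineage markers 12 were tested, and all 12 were well above background on all 6 arrays. Of these 12, 3 were lower and 3 higher at the adjusted p, beside 15.8% and 15.7% of all genes tested. Th, which makes a catecholamine precursor, was called lower (-0.62, SE 0.048, limma adjusted p 0.0015). The mean log2 signal of the 12 was 3.09 to 3.14 on Vector and 3.11 to 3.16 on YAYC arrays. Nefm, 1 of the 12, read far below this, with a mean of -5.32 on Vector and -5.24 on YAYC arrays. Of 7 markers of other cell types 6 were tested, of which 3 were well above background on all 6 arrays and 1 on none. The mean log2 signal of these 6 was -5.10 to -4.95 on Vector and -5.48 to -5.28 on YAYC arrays. Col1a1, a collagen of fibroblasts, was called lower (-0.77, SE 0.20, limma adjusted p 0.049). That call held in 9 of 18 alternative fits, with changes from -0.93 to -0.25. Ptprc of leukocytes changed by -0.52 (SE 0.11, limma adjusted p 0.024). The part of these markers in the results was not tested. All arrays lay on 1 slide, with the Vector arrays and YAYC array 1 in row 1 and YAYC arrays 2 and 3 in row 2.

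Upstream sequences are shown as examples for 3 of the genes with the largest decreases and for both lectin chaperones. Neither lectin chaperone passed the test with the settings used. These examples were chosen with the changes known and do not stand for all genes that fell or did not pass. Counts of CCAAT boxes over all genes with a promoter are given below. Each sequence is the 250 bases before the annotated start site, from RefSeq on build GRCm38.p6, 5′ to 3′ in the direction of the gene. CCAAT or its reverse complement ATTGG is in capitals. In Calr and Canx the capitals CGTGG or CCACG mark the other end of an ER stress response element, which is CCAAT, 9 bases of any kind and CCACG. The regions are chr2:30392004-30392253 (plus strand) for Dolpp1, chr3:121291490-121291739 (plus) for Alg14, chr5:76140023-76140272 (plus) for Srd5a3, chr8:84846932-84847181 (minus) for Calr and chr11:50325674-50325923 (minus) for Canx.
Dolpp1: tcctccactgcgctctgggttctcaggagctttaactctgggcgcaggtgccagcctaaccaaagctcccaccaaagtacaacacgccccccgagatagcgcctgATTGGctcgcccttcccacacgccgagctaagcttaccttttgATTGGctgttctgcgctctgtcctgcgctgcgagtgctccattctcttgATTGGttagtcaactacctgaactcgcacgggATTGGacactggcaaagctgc
Alg14: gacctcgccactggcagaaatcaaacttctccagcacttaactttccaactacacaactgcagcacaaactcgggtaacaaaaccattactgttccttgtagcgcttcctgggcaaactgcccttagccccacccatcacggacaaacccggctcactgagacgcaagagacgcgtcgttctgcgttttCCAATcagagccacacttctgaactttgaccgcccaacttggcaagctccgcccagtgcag
Srd5a3: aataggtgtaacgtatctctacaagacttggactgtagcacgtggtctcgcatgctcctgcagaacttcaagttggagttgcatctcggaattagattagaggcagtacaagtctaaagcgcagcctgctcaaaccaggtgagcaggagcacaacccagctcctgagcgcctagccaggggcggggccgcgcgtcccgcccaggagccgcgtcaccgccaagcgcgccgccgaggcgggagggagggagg
Calr: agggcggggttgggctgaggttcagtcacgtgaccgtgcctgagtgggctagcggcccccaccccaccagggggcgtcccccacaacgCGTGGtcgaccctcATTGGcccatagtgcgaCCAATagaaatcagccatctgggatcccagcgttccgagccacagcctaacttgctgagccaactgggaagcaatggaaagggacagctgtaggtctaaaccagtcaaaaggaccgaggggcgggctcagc
Canx: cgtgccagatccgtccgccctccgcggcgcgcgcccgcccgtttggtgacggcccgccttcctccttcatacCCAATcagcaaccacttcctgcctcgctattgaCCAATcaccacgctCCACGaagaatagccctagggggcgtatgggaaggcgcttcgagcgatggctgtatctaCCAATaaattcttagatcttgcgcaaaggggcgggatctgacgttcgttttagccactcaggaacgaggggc

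Across the 42 genes, 6 were called lower and 0 higher, a call being a limma adjusted p below 0.05 with a fold change above 1.5. Among all genes tested 5.0% were called lower and 3.91% higher. The 6 were Dolpp1, Srd5a3, Alg14, Dpagt1, Alg1 and Alg10b, and all acted in dolichol supply or in assembly of the glycan. With no minimum fold, 15 of the 42 passed this adjusted p as lower and 5 as higher, against 15.8% and 15.7% of all genes, and 22 did not pass. For those 22 the 95% limma interval of the change stayed within 1.5-fold in either direction. All 3 YAYC arrays lay below all 3 Vector arrays for 22 genes and above them for 10, against 27.1% and 27.7% of all genes, and the groups overlapped for the other 10. The median change of the 42 was -0.11, with 66.7% of them below 0, beside a median of 0.0053 and 49.2% below 0 over all genes tested. With each array scaled to its median, the median over all genes itself was -0.11 and that of the 42 was -0.22. RNA came from whole cultures, so fewer cells holding a transcript and less of it per cell cannot be told apart.

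**Figure D1:**
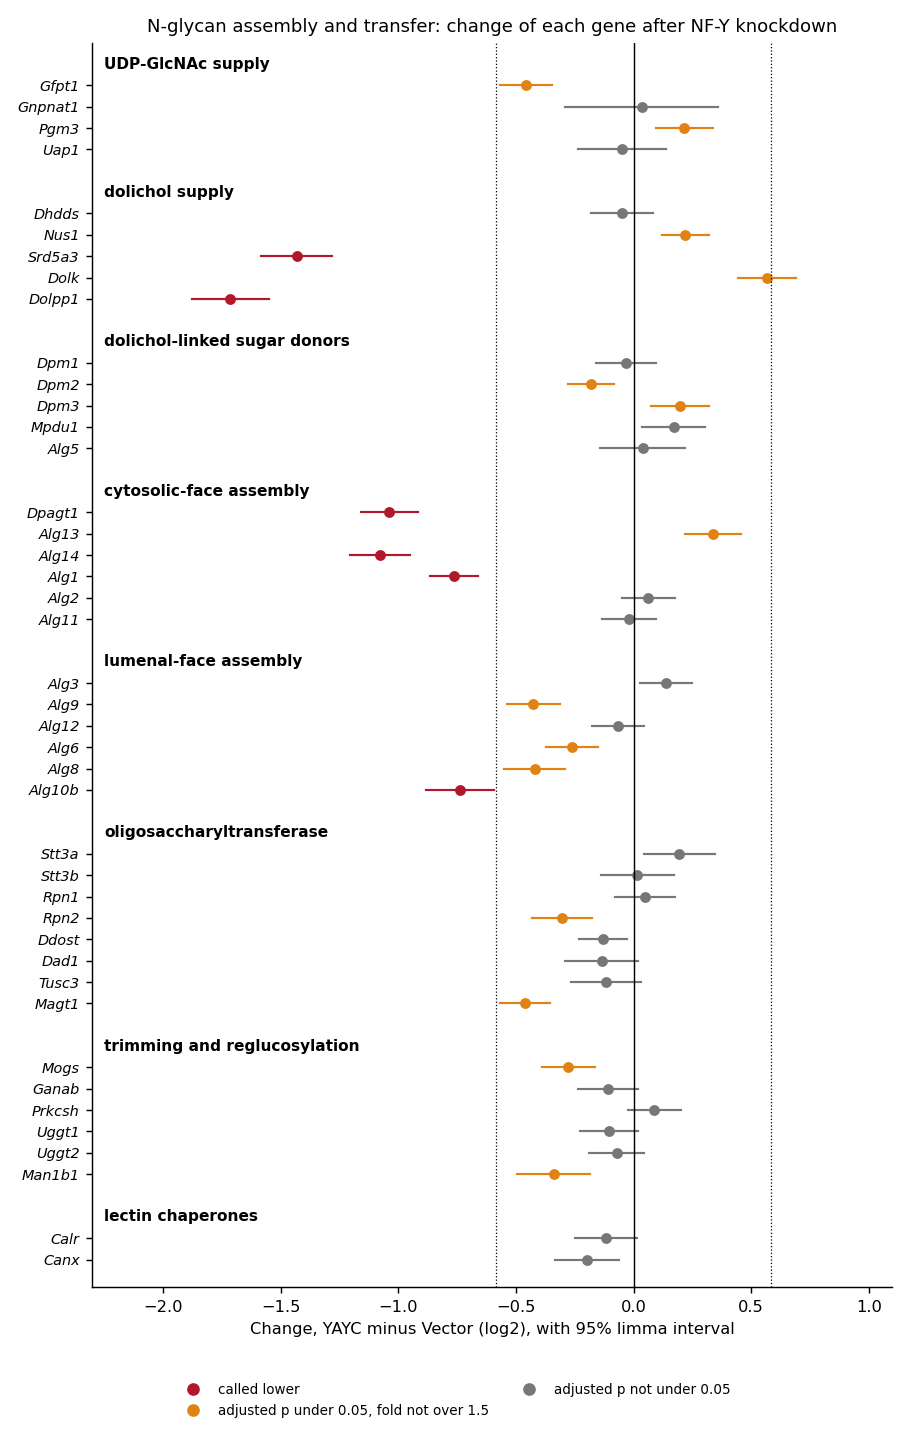
Change of each of the 42 genes (YAYC minus Vector, log2, with its 95% limma interval), grouped by role, with dotted lines at a fold of 1.5 in either direction. The 6 genes called lower lie in the dolichol supply, cytosolic-face and lumenal-face groups. No gene of the oligosaccharyltransferase, trimming or lectin groups passed a dotted line. Over all genes tested 5.0% were called lower and 3.91% higher.

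The largest decreases were in the supply of the dolichol carrier. Dolpp1, the phosphatase that recycles dolichyl diphosphate released after transfer, had normalized log2 signals of 4.13, 4.19 and 4.06 on the Vector arrays and 2.40, 2.33 and 2.50 on the YAYC arrays (probe A_55_P1990127). Every YAYC array was more than 1 log2 unit below every Vector array. The change was -1.71 (SE 0.065, limma adjusted p 0.00036), which leaves 30.5% of the Vector signal. Srd5a3, a reductase needed to turn polyprenol into dolichol, read -0.71, -0.65 and -0.67 on the Vector arrays and -2.07, -2.21 and -2.06 on the YAYC arrays (probe A_55_P2043892). These groups did not overlap either, and the change was -1.43 (SE 0.059, limma adjusted p 0.00040), or 37.0% of the Vector signal. Another Srd5a3 probe gave -1.43 as well (SE 0.068, limma adjusted p 0.00050).

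No other gene of dolichol supply passed the adjusted p as lower. Dolk, the kinase that makes dolichol phosphate, read 2.42, 2.32 and 2.39 on the Vector arrays and 2.97, 2.95 and 2.90 on the YAYC arrays. All 3 YAYC arrays were higher, and the change was 0.57 (SE 0.049, limma adjusted p 0.0019), a fold of 1.48 that lay just under the minimum. It was called higher in 4 of 18 alternative fits, namely with quantile normalization (0.60), with the slide row as a block (0.60), without Vector replicate 1 (0.59) and without YAYC replicate 3 (0.59). Nus1, a subunit of the enzyme that makes the polyprenol chain, changed by 0.22 (SE 0.040, limma adjusted p 0.017). Its other probe gave 0.09 (SE 0.12, limma adjusted p 0.62). Nus1 did not pass as the mean of its probes (0.16, limma adjusted p 0.20) or with the replicate number as a block (limma adjusted p 0.067). Its catalytic partner Dhdds changed by -0.05 (SE 0.052, limma adjusted p 0.55).

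**Figure D2:**
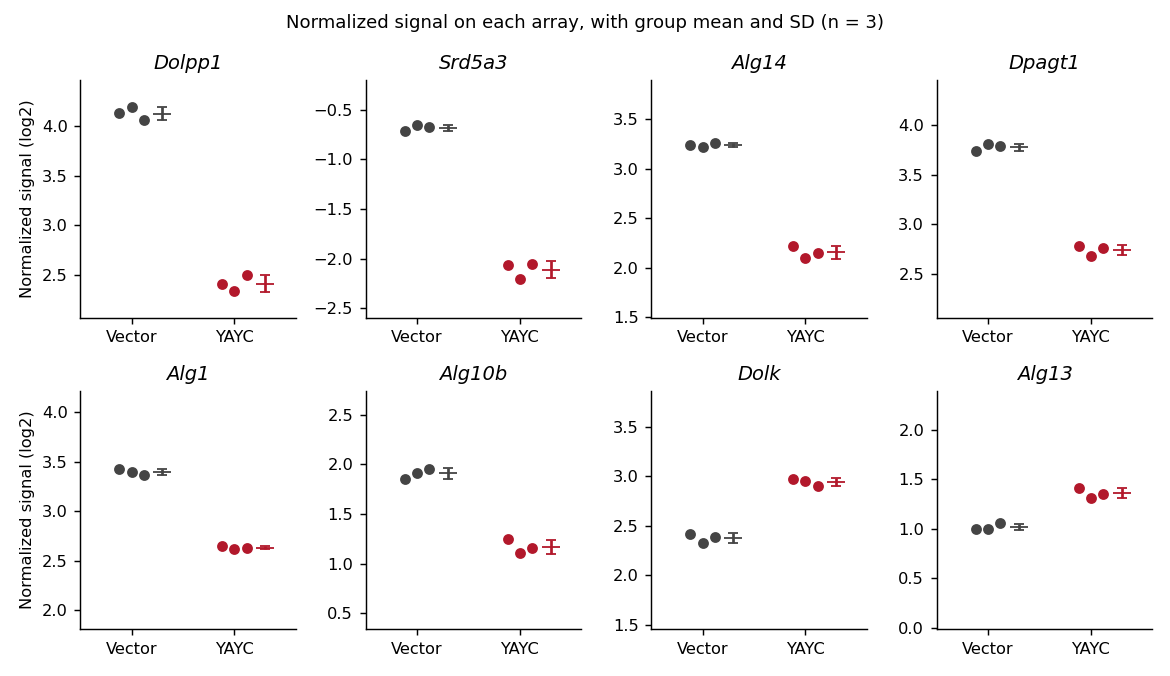
Normalized log2 signal of the 6 genes called lower and of Dolk and Alg13, the members with the largest positive changes, on each of the 3 Vector and 3 YAYC arrays (points), with the group mean and SD (bars). The y axis of each panel is centred on its own values and has the same height in log2 units. In none of the 8 panels do the groups overlap.

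On the cytosolic face 3 of 6 genes were called lower, and they act at the first steps of the glycan. Dpagt1, the enzyme that puts the first sugar on dolichol phosphate and the target of tunicamycin, read 3.73, 3.81 and 3.78 on the Vector arrays and 2.77, 2.68 and 2.76 on the YAYC arrays (probe A_51_P422208). All YAYC arrays were lower, and the change was -1.04 (SE 0.048, limma adjusted p 0.00049), or 48.7% of the Vector signal. Alg14, the membrane anchor of the transferase for the second N-acetylglucosamine, read 3.24, 3.22 and 3.26 against 2.22, 2.09 and 2.15 (probe A_51_P105408). The groups again lay apart, with a change of -1.08 (SE 0.050, limma adjusted p 0.00049). Alg1, which adds the first mannose, read 3.42, 3.39 and 3.36 against 2.65, 2.62 and 2.63 (probe A_55_P2179398). Its YAYC arrays spanned the least of these 3 genes, and the change was -0.76 (SE 0.041, limma adjusted p 0.00063).

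The remaining cytosolic-face genes did not pass as lower. Alg13, the catalytic subunit that Alg14 holds at the membrane, read 1.002, 1.001 and 1.057 on the Vector arrays and 1.411, 1.314 and 1.348 on the YAYC arrays. It was higher on every YAYC array, by 0.34 (SE 0.047, limma adjusted p 0.0078), and another of its probes gave 0.30 (SE 0.041, limma adjusted p 0.0071). The brightest probe was matched through a RefSeq record for a noncoding transcript of Alg13, and the other probe through an mRNA record. The mannosyltransferases Alg2 and Alg11, which act after Alg1, changed by 0.06 (SE 0.044, limma adjusted p 0.38) and -0.02 (SE 0.045, limma adjusted p 0.79).

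Assembly on the lumenal face held 1 called gene of 6. Alg10b, which adds the last glucose, read 1.85, 1.92 and 1.96 on the Vector arrays and 1.25, 1.11 and 1.15 on the YAYC arrays (probe A_65_P19286). The arrays did not overlap, and the change was -0.74 (SE 0.058, limma adjusted p 0.0015), or 60.0% of the Vector signal. The other glucosyltransferases, Alg8 and Alg6, changed by -0.42 (SE 0.052, limma adjusted p 0.0053) and -0.26 (SE 0.044, limma adjusted p 0.013). With the slide row as a block, Alg8 (limma adjusted p 0.060) and Alg6 (limma adjusted p 0.077) did not pass, and Alg6 also did not pass with the replicate number as a block (0.068), as the mean of its probes (0.088) or without YAYC replicate 3 (0.054). Among the mannosyltransferases, Alg9 changed by -0.43 (SE 0.045, limma adjusted p 0.0034), whereas Alg12 (-0.07, limma adjusted p 0.34) and Alg3 (0.14, limma adjusted p 0.081) did not pass.

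None of the 4 genes that make UDP-N-acetylglucosamine was called, beside 5.0% of all genes tested called lower and 3.91% higher. Gfpt1, the entry enzyme of the hexosamine pathway, had the largest change of them, reading 3.18, 3.15 and 3.21 on the Vector arrays and 2.76, 2.70 and 2.70 on the YAYC arrays. It was lower on every YAYC array, with a change of -0.46 (SE 0.044, limma adjusted p 0.0026), and its other probe gave -0.37 (SE 0.053, limma adjusted p 0.0082). Pgm3, a phosphoacetylglucosamine mutase, changed by 0.22 (SE 0.048, limma adjusted p 0.031). Gnpnat1, the acetyltransferase of the pathway, changed by 0.03 (SE 0.13, limma adjusted p 0.88) and Uap1, which forms the nucleotide sugar, by -0.05 (SE 0.074, limma adjusted p 0.67).

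None of the 5 genes for the dolichol-linked sugar donors was called either, beside the same 5.0% and 3.91% of all genes tested. Among their brightest probes the largest change was that of Dpm3, a stabilizing subunit of dolichol phosphate mannose synthase, which read 2.38, 2.44 and 2.35 on the Vector arrays and 2.63, 2.54 and 2.59 on the YAYC arrays. It was higher on all 3 YAYC arrays, by 0.20 (SE 0.049, limma adjusted p 0.043). Dpm2, a further subunit, changed the other way, by -0.18 (SE 0.039, limma adjusted p 0.027), and the catalytic Dpm1 by -0.03 (SE 0.050, limma adjusted p 0.68), but by -0.36 (SE 0.068, limma adjusted p 0.021) as the mean of its probes. Mpdu1, needed for use of both donors in the lumen, changed by 0.17 (SE 0.053, limma adjusted p 0.079), with 0.21 from its other probe (SE 0.046, limma adjusted p 0.029), and Alg5, which makes dolichol phosphate glucose, by 0.04 (SE 0.071, limma adjusted p 0.74).

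Transfer of the glycan showed 0 calls among 8 subunits of oligosaccharyltransferase, beside 5.0% of all genes tested called lower and 3.91% higher. A list of 8 genes is too short for 0 calls to be told apart from those shares. Magt1, a subunit with an oxidoreductase fold, changed most, reading 0.90, 0.94 and 0.88 on the Vector arrays and 0.46, 0.46 and 0.42 on the YAYC arrays. The arrays did not overlap, and the change was -0.46 (SE 0.042, limma adjusted p 0.0022), with -0.35 from its other probe (SE 0.066, limma adjusted p 0.019). Its paralogue Tusc3 changed by -0.12 (SE 0.058, limma adjusted p 0.23). Rpn2, a structural subunit, changed by -0.31 (SE 0.050, limma adjusted p 0.013). The catalytic subunits Stt3a (0.19, limma adjusted p 0.077) and Stt3b (0.02, limma adjusted p 0.88) did not pass, nor did Rpn1 (0.05), Ddost (-0.13) or Dad1 (-0.14).

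Trimming and reglucosylation likewise held 0 calls among 6 genes, too few to be told apart from the 5.0% called lower over all genes tested. Man1b1, an ER mannosidase, read 4.37, 4.34 and 4.20 on the Vector arrays and 3.93, 4.01 and 3.95 on the YAYC arrays. It was lower on every YAYC array, with a change of -0.34 (SE 0.061, limma adjusted p 0.016), and Mogs, the glucosidase that removes the outermost glucose, changed by -0.28 (SE 0.044, limma adjusted p 0.011). The glucosidase II subunits Ganab (-0.11) and Prkcsh (0.09) and the reglucosylating folding sensors Uggt1 (-0.11) and Uggt2 (-0.07) had limma adjusted p values from 0.19 to 0.33. The other Uggt1 probe gave -0.25 (SE 0.057, limma adjusted p 0.032).

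Neither lectin chaperone passed the test with the settings used. Canx, which encodes calnexin, read 5.99, 5.87 and 5.98 on the Vector arrays and 5.70, 5.76 and 5.78 on the YAYC arrays, and Calr, which encodes calreticulin, read 5.44, 5.49 and 5.38 against 5.37, 5.29 and 5.30. For both genes all YAYC values lay below all Vector values, by a narrow margin in Calr. The change of Canx was -0.20 (95% limma interval -0.33 to -0.06, limma adjusted p 0.055) and that of Calr -0.12 (SE 0.052, limma adjusted p 0.18). Over the 18 alternative fits the limma adjusted p of Canx ran from 0.0046 to 0.35, with changes from -0.31 to -0.078. Canx thus passed the adjusted p in at least 1 of them, without a call. Calr passed in none (lowest limma adjusted p 0.051).

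**Figure D3:**
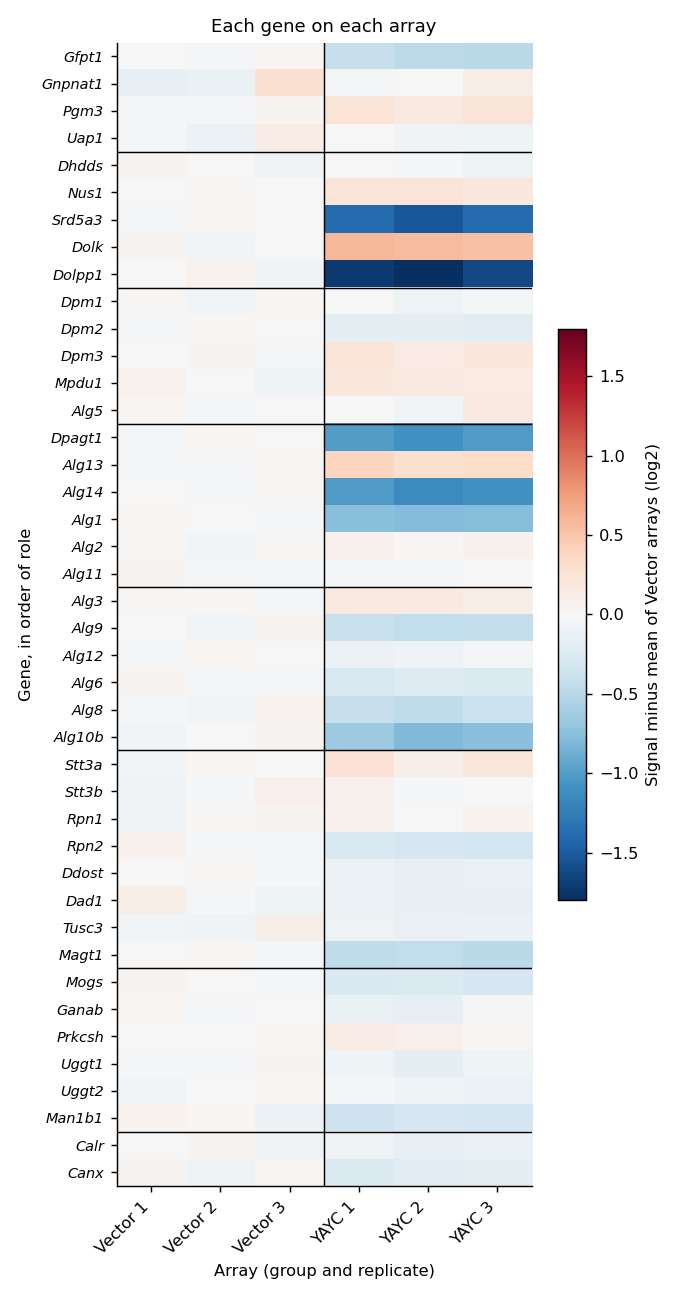
Normalized log2 signal of each of the 42 genes on each array minus the mean of that gene's 3 Vector arrays, in order of role, with black lines between roles. Blue is lower and red is higher, and the 6 genes called lower are blue on all 3 YAYC arrays, including YAYC 1, which shared its slide row with the Vector arrays.

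Because the row of the slide and the group were partly tied, changes were also read within row 1, from YAYC array 1 against the 3 Vector arrays. There Dolpp1 differed by -1.722, Srd5a3 by -1.388, Alg14 by -1.013, Dpagt1 by -1.001, Alg1 by -0.748 and Alg10b by -0.660. The fit with the row as a block gives this same difference. Its residual spread comes from the 3 Vector arrays and YAYC arrays 2 and 3, and YAYC array 1, alone of its group in row 1, adds none. It therefore assumes that the lone YAYC array of row 1 varies like the others. It called the same 6 genes lower. Of the 15 genes lower and 5 higher with no minimum fold, 9 (the 6 and Alg9, Gfpt1 and Magt1) and 2 (Dolk and Alg13) passed in that fit, and 1 of the 5 higher genes, Dolk, passed with median scaling. Of those 5, 3 passed without Vector replicate 3 and 2 without any other single array.

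Another tested probe existed for 16 of the 42 genes, with the sign of the brightest probe for 12 and the opposite sign for 4. Probes disagreed most for Dpm1 and Gnpnat1. The dimmer Dpm1 probe was called lower at -0.69 (SE 0.091, limma adjusted p 0.0066) and the dimmer Gnpnat1 probe at -0.59 (SE 0.072, limma adjusted p 0.0051), while their brightest probes, given above, read -0.03 and 0.03. For these genes the value depends on the probe, and the transcripts that each probe reads were not compared.

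Outside the 42 genes, 38 genes that act before, beside or after them were listed and 37 were tested. Of these 2 were called lower and 1 higher, beside 5.0% and 3.91% of all genes tested. At the adjusted p alone, 7 were lower and 5 higher, beside 15.8% and 15.7% of all genes. The 5 further genes of oligosaccharyltransferase and transfer (Ostc, Ost4, Krtcap2, Tmem258 and Mlec) had changes from -0.17 to 0.13, and none passed. Engase, a cytosolic enzyme that cuts the core of free N-glycans, read 2.45, 2.34 and 2.23 on the Vector arrays and 1.41, 1.39 and 1.32 on the YAYC arrays. It was lower on all 3, with a change of -0.97 (SE 0.071, limma adjusted p 0.0013).

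In the Golgi list of 14 tested genes, Man1a2 and Mgat3 were called. Man1a2, an alpha-mannosidase, changed by -0.68 (SE 0.055, limma adjusted p 0.0017), but by -0.18 and without a call (limma adjusted p 0.094) as the mean of its probes. Mgat3, which adds the bisecting N-acetylglucosamine, changed by 0.66 (SE 0.064, limma adjusted p 0.0027), and its fold fell below the minimum with median scaling (0.55) and with normexp (0.58). Of the sugar nucleotide genes, Gmppb, which forms GDP-mannose, was higher by 0.42 (SE 0.052, limma adjusted p 0.0057) and Amdhd2, which deacetylates N-acetylglucosamine phosphate, changed by -0.28 (SE 0.061, limma adjusted p 0.029). Among genes that share the dolichol phosphate mannose donor, Pigv of glycosylphosphatidylinositol anchor synthesis changed by -0.45 (SE 0.046, limma adjusted p 0.0031) and Pigm by 0.23 (SE 0.055, limma adjusted p 0.040).

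**Figure D4:**
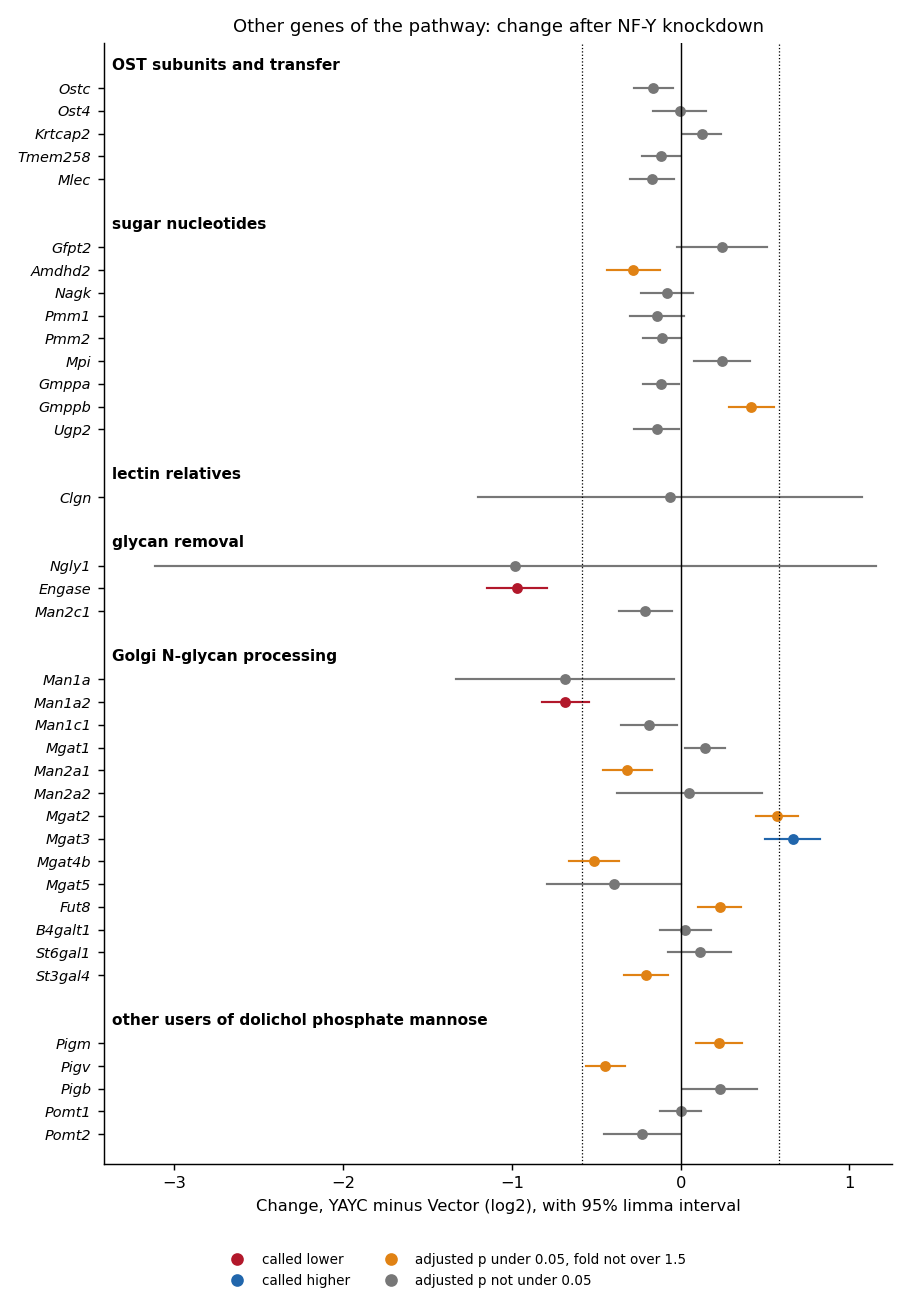
Change of the 37 other genes of the pathway that were tested (YAYC minus Vector, log2, with its 95% limma interval), grouped by role, with dotted lines at a fold of 1.5 in either direction. Engase and Man1a2 were called lower and Mgat3 higher, while the wide intervals of Ngly1, Clgn and Man1a show that these probes gave little precision.

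CCAAT boxes were counted on both strands of a window from 250 bases before to 50 after the start site, for the 37 genes with a promoter in the RefSeq table. A box was present in 23 of the 37 (62.2%), beside 37.4% of all 32851 promoters of the table and 42.6% of the genes tested. Among all genes called lower it was present in 55.8%, among those called higher in 36.5% and among those not called in 42.1%. With no minimum fold it was present in 53.2% of all lower genes, 40.2% of all higher genes and 40.6% of those that did not pass. Of the N-glycan genes, a box was found in 2 of 5 called lower, in 6 of 14 lower with no minimum fold, in 3 of 5 higher with no minimum fold and in 14 of 18 that did not pass the adjusted p. These are shares of few genes, and their difference from the shares over all genes was not tested.

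Dolpp1, with the largest decrease, held 4 boxes, at -145, -102, -53 and -21 from the start site and all as ATTGG on the strand of the gene. Alg14 held 1 at -61, and its window and those of Dolpp1, Calr and Canx can be compared in the sequences above. No CCAAT was found in the windows of Srd5a3, Alg1 and Alg10b, or of Dolk. Dpagt1, Alg2, Alg11, Tusc3 and Gnpnat1 had no entry.

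The ER stress response element was present in 3 of the 37 genes, Alg12, Calr and Canx, and in 0.119% of all promoters and 0.176% of the genes tested. The CCAAT end of each element is also counted as a box above. None of these 3 genes passed the adjusted p with the settings used, and their changes were -0.07, -0.12 and -0.20. The ER stress response element II, which is ATTGG, 1 base of any kind and CCACG, was in none of the 37 windows and in 0.0365% of all promoters. A match says only that these letters stand in the window.

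**Figure D5:**
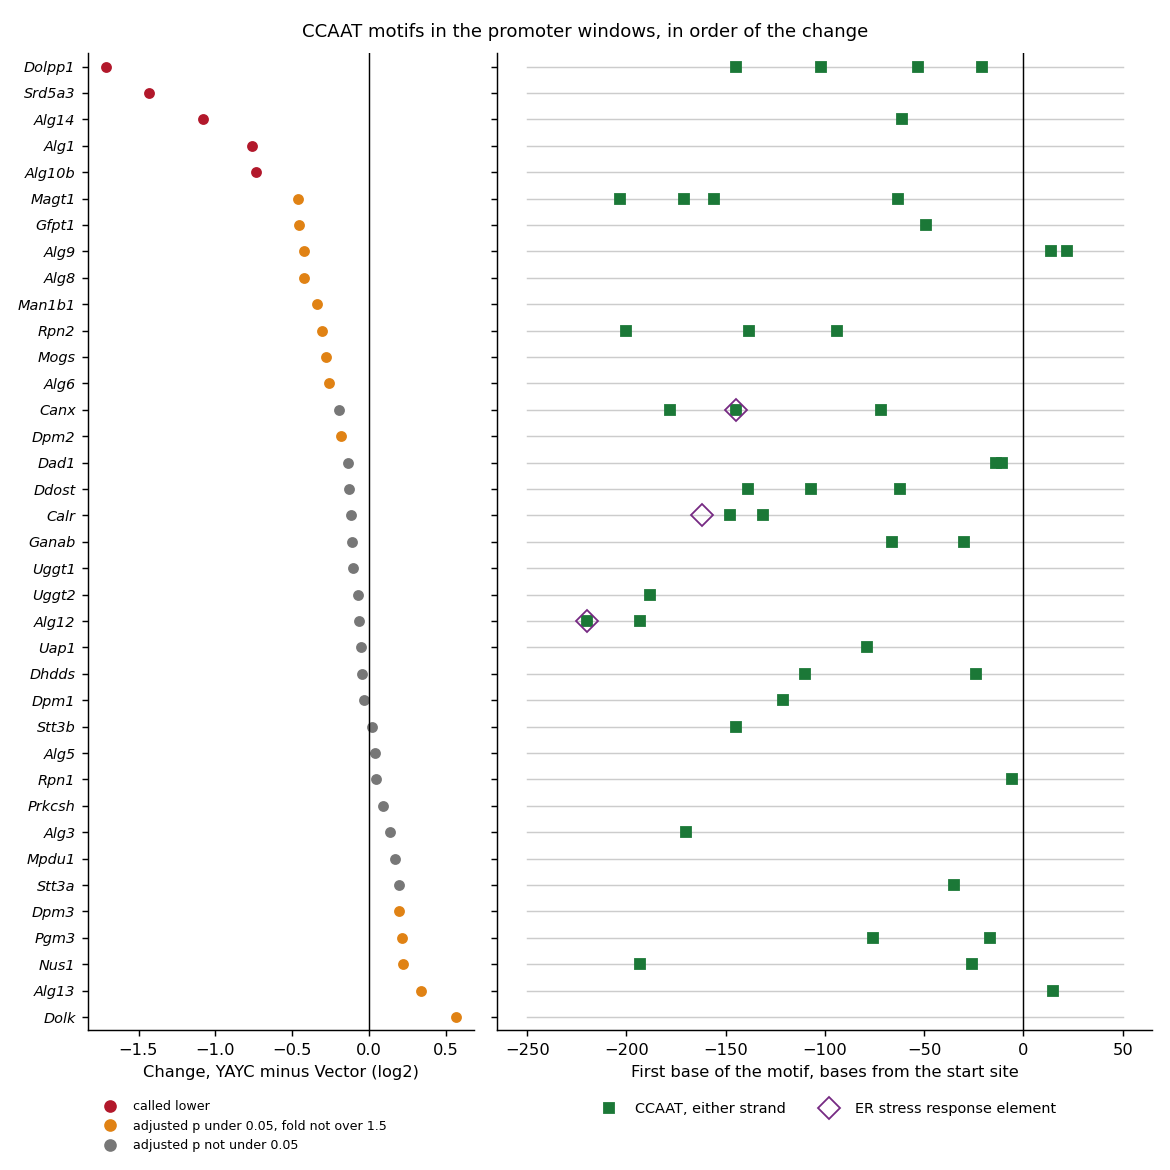
Left, change of the 37 genes with a promoter window (YAYC minus Vector, log2), ordered from the lowest. Right, the first base of each CCAAT box on either strand (squares) and ER stress response element (diamonds), in bases from the start site. Dolpp1 at the top holds 4 boxes, and the 3 elements lie in genes that did not pass the adjusted p with the settings used.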

How the data were processed

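Cy3-labelled material was made from total RNA of neuro2a cells and hybridized to Agilent SurePrint G3 mouse arrays. The deposited scanner tables, made with Feature Extraction 10.10.1.1 per the file headers, give a background-corrected processed signal per spot as an intensity. The deposited matrix holds log2 values of the same arrays. Over 43557 probes with 1 spot, differences between arrays in it matched the scaling used here to within 0.0075, its column medians lay between -0.012 and 0.018, and the constant taken off each probe is unstated. The authors analysed the data in GeneSpring and excluded genes of low signal.

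Control and outlier spots were left out, each array's 75th percentile (718 to 754) was subtracted on the log2 scale, and 42126 probes that reached the 20th percentile on all arrays of a group were compared by two-sided moderated tests (lmFit, eBayes) of limma 3.58.1, run in R 4.3.3 without covariates. P-values were adjusted by Benjamini-Hochberg across every tested probe. No spot was saturated. The script was checked on simulated data. Symbols and promoters came from RefSeq tables (GRCm38.p6), with a match for 25869 of the 26392 probes that carry a curated mRNA accession. All 42 genes were well above background on all 6 arrays. Values of different probes are not compared as levels. The members, roles and lists were chosen with earlier results of these data known. Full statistics are given for called genes and, in a role without one, for the largest change; Dolk, Alg13 and genes named beyond this rule were chosen after their values were seen. A gene of the pathway lists is not reported here.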

Additional observations from a re-analysis of the deposited data

How the results depend on the processing

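The 6 genes called lower (Dolpp1, Srd5a3, Alg14, Dpagt1, Alg1 and Alg10b) were the same 6 in each of 18 alternative fits, which changed the scaling, background correction, source of values, filters, variance model, probe choice or blocks, or left out 1 array. With a minimum fold of 2 the count was 4, and with no minimum fold 15 were lower and 5 higher. That balance moved with the processing. With no minimum fold, normexp gave 15 lower and 10 higher, and a variance trend 17 and 8. Quantile normalization gave 14 and 7, and median scaling 15 and 1. The count called higher, 0 with the settings used, was 1 (Dolk) with quantile normalization and with the slide row as a block, and 0 to 1 on leaving out each array in turn, the 1 again being Dolk, without Vector replicate 1 or YAYC replicate 3. With no minimum fold, 10 to 14 of the 15 lower genes still passed when 1 array was left out, as did 3 of the 5 higher genes without Vector replicate 3 and 2 without each other array. The median change of the 42 genes was -0.22 with median scaling, -0.066 with normexp and -0.055 with quantile normalization, and -0.11 to -0.080 on leaving out each array. The cause was not tested. Normexp used the median signal because the scanner tables hold no mean signal, a choice made after seeing the data, and it gave 560 genes lower and 284 higher over all genes, against 824 and 644. Of all calls 56.1% were lower, 66.4% with normexp and 75.5% with median scaling. The change turned sign under at least 1 alternative for 11 of the 42 genes, and none of those 11 had passed the adjusted p. Samples of the same replicate number correlated at 0.018, 0.067 and 0.0025 in their deviations, so the numbers were not read as pairs. With the replicate number as a block, 6 of the 42 genes were called lower and 0 higher, and with no minimum fold 11 and 2.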
